A study of Homo sapiens with 54 samples.

Results

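The genes described here encode collagens, laminins, matrix metalloproteinases, ADAMTS proteinases, tissue inhibitors of metalloproteinases (TIMPs), lysyl oxidases and the glycoproteins FN1, SPARC, TNC and POSTN. They were chosen by symbol and by level, and 105 of the 18417 genes on the array had a matching symbol. Of these, 66 had a mean of 7 or more on the log2 scale over the 27 arrays of total lysate RNA and form the set, and 39 lay below that level. By role, the 66 genes were 3 chains of type IV collagen, 8 chains of fibrillar collagens, 15 of other collagens, 8 laminin chains, 4 glycoproteins, 4 lysyl oxidases, 9 ADAMTS proteinases, 11 metalloproteinases and 4 TIMPs. Just inside the level lay COL15A1 at 7.09 and COL20A1 at 7.11, and just outside lay MMP24 at 6.97 and ADAMTS16 at 6.89. The level was used to choose the genes and is no finding, and 59 of the 66 were at 7 or more in every one of the 9 lysate groups. The control lysate means of ADAMTS14 (6.91), ADAMTS9 (6.96), COL20A1 (6.94) and COL15A1 (6.69) lie below 7. They are members through transfected groups in which they are higher, so their lysate differences are given as a description, with no test. Counts in the main fits are given with and without them or name those included, and counts under other settings include them.

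The cells were H4, an established human line that the labels describe as glioneuronal. Each culture received 1 of 9 small RNAs by transfection, and cells were collected 48 h later. Mimics of miR-16 and miR-195 and of miR-103 and miR-107 belong to the group that the study is about. The others were mimics of miR-320, miR-15b* (written miR-15b in the sample titles), 2 altered forms of miR-107 (miR-107-mut2 and miR-107-mut1) and Ambion's negative control RNA. From each of 3 biological replicates per transfection, total RNA of the lysate and RNA precipitated with the anti-Argonaute antibody 2A8 (the IP) were measured on separate arrays, 54 in all. All groups are of the same cell line, so every control value comes from H4 cells that also received a transfected RNA. Levels in a bulk lysate cannot tell fewer expressing cells apart from less RNA per cell.

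The extracellular matrix is the protein meshwork around cells. Collagens and laminins form its fibres and sheets, lysyl oxidases crosslink collagen, ADAMTS and matrix metalloproteinases process or cut matrix proteins, and TIMPs block the metalloproteinases. A microRNA guides Argonaute to messenger RNAs that pair with its seed, bases 2 to 8, and usually lowers their level, while messages without a paired site can change indirectly.

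The mature microRNAs are shown because the comparisons below set molecules with related 5′ ends against each other. They were taken from RefSeq (GRCh38.p14), run 5′ to 3′, and carry the seed in capitals.
miR-103a-3p: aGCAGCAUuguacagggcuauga
miR-107: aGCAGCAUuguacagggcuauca
miR-16-5p: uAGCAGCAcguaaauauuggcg
miR-195-5p: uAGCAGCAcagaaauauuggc
miR-15b-3p: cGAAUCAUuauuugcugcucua
The first pair shares 1 seed and the next pair another. The run AGCAGCA lies at bases 1 to 7 of miR-103a-3p and miR-107 and at bases 2 to 8 of miR-16-5p and miR-195-5p, and it is absent from miR-15b-3p, the strand to which the name miR-15b* is taken to refer. The labels write miR-103 with no arm, and the altered molecules and miR-320 are named only.

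Correlations between replicate arrays of a group ran from 0.947 to 0.996 in lysate and from 0.831 to 0.977 in the IP. Against the other arrays of their fraction, lysate replicate 2 of miR-103, miR-16 and miR-15b*, IP replicate 2 of miR-107 and IP replicate 1 of miR-15b* stood apart. Calls of members that ended without these arrays are named, and other values are given with them only. The median SD of a matrix gene over the 3 arrays of a group was 0.17 in lysate and 0.23 in the IP. Of markers fixed for other cell types, 4 of 8 glial, 6 of 10 neuronal, 7 of 8 mesenchymal and 1 of 6 haematopoietic genes passed the filter on low values. Levels are given for part of each list. In the control lysates the glial marker GFAP stood at 6.51 ± 0.14 (SD, n = 3) and SOX9 at 9.53 ± 0.08. Of the other glial markers, AQP4 stood at 4.60 ± 0.21 and ALDH1L1 at 6.80 ± 0.15. The neuronal markers MAP2 and RBFOX3 stood at 8.14 ± 0.07 and 7.46 ± 0.19. The mesenchymal marker ACTA2 stood at 9.62 ± 0.30 and the leukocyte marker PTPRC at 3.59 ± 0.02. The haematopoietic marker that passed the filter was CD68, a lysosomal protein of macrophages, which stood at 10.66 ± 0.12 and was not called in lysate with any transfection. Probe sets differ in brightness, so these levels cannot be ranked against each other. Among the mesenchymal markers at most 1 gene was called higher and 1 lower in any lysate comparison with the control. Of the 4 glial markers tested, 2 rose with miR-103, 1 with miR-107 and 1 with miR-16. Of the 6 neuronal markers, 3 rose with miR-107-mut1 and 1 with each of the 4 microRNAs named first and with miR-107-mut2. No glial or neuronal marker fell against the control in lysate, and the part of these markers in the results was not tested.

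In the lysates, more of the matrix genes in the main fit rose than fell with each of the 8 transfections, although with miR-320 just 1 was called. The filter on low values kept 11050 genes and 62 of the 66 members. A gene was called when limma's adjusted p (Benjamini-Hochberg over all 11050) was under 0.05. MMP1, MMP3, MMP13 and COL15A1 lay below the filter and are not in these counts. In the fit without a filter, described below, MMP3 fell with miR-16, miR-195 and miR-107-mut1, and MMP1 fell with miR-15b*. With miR-103, 12 members rose and 0 fell, where 8.37% of all genes rose and 8.88% fell. With miR-107, 11 rose and 0 fell, against 6.51% and 8.35% of all genes. With miR-16, 11 rose and 2 fell, against 9.56% and 7.45%. With miR-195, 12 rose and 1 fell, against 6.82% and 7.22%. Each of those 4 counts of risers includes ADAMTS14, and those with miR-107 and miR-195 also include ADAMTS9. Both are members through groups in which they are higher, and the counts without such genes are given below.

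With only the arrays compared in the fit, the members called with miR-16 were 5. With miR-107-mut2, 10 members rose and 0 fell, against 6.23% and 7.58% of all genes. That count became 23 without the arrays that stood apart and 20 with only the arrays compared. With miR-107-mut1, 4 rose and 0 fell, against 3.33% and 5.44%. With miR-15b*, 5 rose and 1 fell, against 3.5% and 4.04%. With miR-320, 1 rose and 0 fell, against 1.46% and 1.5%, and 7 members had an unadjusted p under 0.05. The share of risers with miR-320 was 1.61% of the members, near the 1.46% of all genes.

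The median change over the 62 members was 0.24 with miR-103, where the median over all genes was 0.03. It was 0.15 against 0.01 with miR-107, 0.18 against 0.05 with miR-16, 0.12 against 0.01 with miR-195 and 0.20 against 0.03 with miR-107-mut2. With miR-15b* it was 0.14 against 0.05, with miR-107-mut1 0.10 against 0 and with miR-320 0 against 0. All 8 comparisons use the same 3 control arrays, so their values are set side by side and are not independent of one another. Of the 62 members, 42 were called in none of the 8, 19 rose in at least 1 and 8 rose in at least 5. The 19 include ADAMTS14 and ADAMTS9 and the 8 include ADAMTS14, which are members through groups in which they are higher. Where genes whose control lysates lay below 7 were set aside, 59 tested members remained, of which 11 rose with miR-103, 9 with miR-107, 10 with miR-16 and 10 with miR-195. Of these 59, 8 rose with miR-107-mut2, 4 with miR-107-mut1, 4 with miR-15b* and 1 with miR-320.

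**Figure D1:**
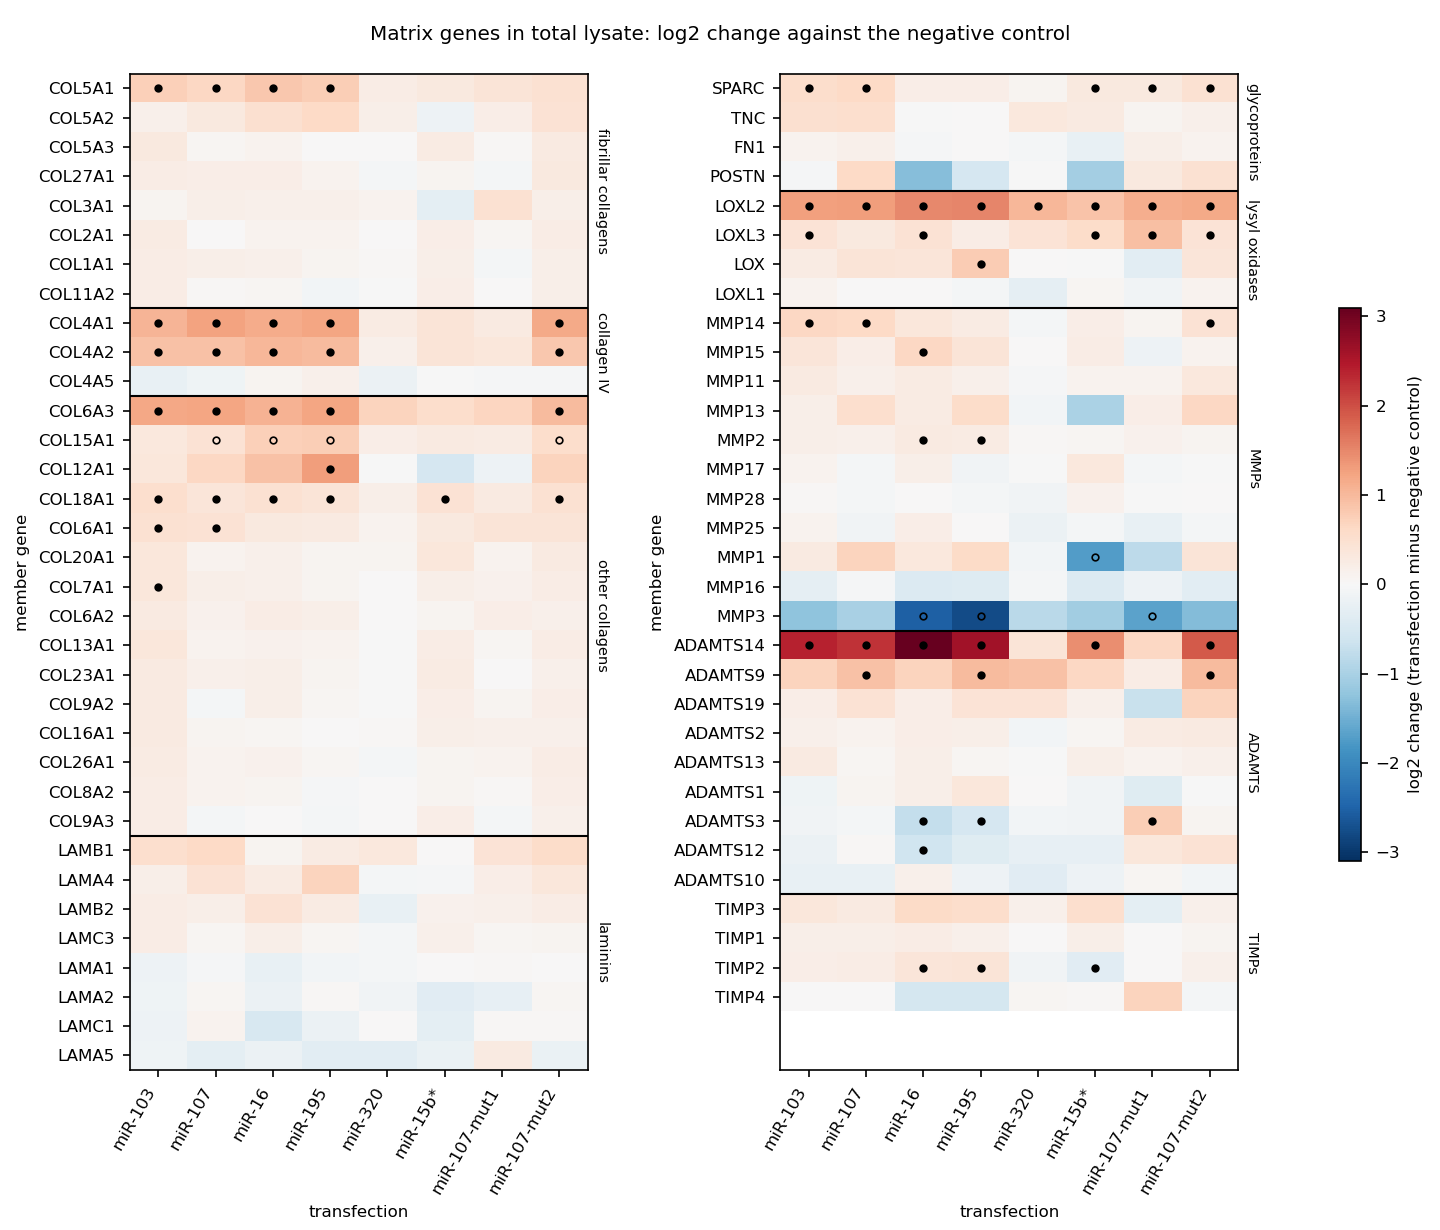
Change of each matrix gene in lysate on the log2 scale (colour) with each of the 8 transfections (columns) against the negative control, with genes ordered by role (rows). Filled dots mark changes called at an adjusted p under 0.05 in the fit of 11050 genes and open circles those called for genes below the filter in the fit without a filter. Marks for ADAMTS14, ADAMTS9 and COL15A1, whose control lysate means lie below 7, are no test, since these are members through groups in which they are higher. LOXL2 carries a dot in all 8 columns and the laminin rows carry none.

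Among the basement membrane collagens, COL4A1 and COL4A2 rose with 5 of the 8 transfections, and the third chain, COL4A5, did not pass the test with any. COL4A1 and COL4A2 encode the chains of the most widespread type IV collagen, the network-forming collagen of basement membranes. COL4A1 stood at 8.04, 7.49 and 7.60 in control replicates 1 to 3. With miR-107 it stood at 9.18, 8.92 and 8.77, and with miR-195 at 9.0, 9.02 and 8.79. All 6 of those arrays lay above the highest control.

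The COL4A1 change was 1.24 ± 0.21 (SE) with miR-107, a 2.37-fold rise (adjusted p = 0.00022, limma), and 1.23 ± 0.21 with miR-195 (adjusted p = 0.00029). With miR-103 the arrays read 9.10, 8.59 and 8.63 and the change was 1.06 ± 0.21 (adjusted p = 0.0012). With miR-16 they read 9.11, 8.85 and 8.59 and the change was 1.14 ± 0.21 (adjusted p = 0.00061). Both of these groups also cleared the control without overlap. With miR-107-mut2 COL4A1 read 9.08, 8.92 and 8.65, a change of 1.17 ± 0.21 (adjusted p = 0.00049). With miR-107-mut1 (8.27, 7.86 and 7.82), miR-15b* (8.53, 7.79 and 7.98) and miR-320 (8.39, 7.73 and 7.76) the arrays overlapped the control, the changes were 0.27, 0.39 and 0.25, and none passed the test.

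COL4A2 read 8.64, 8.19 and 8.30 in the controls. With miR-16 it read 9.64, 9.56 and 9.03, a change of 1.04 ± 0.21 (2.05-fold, adjusted p = 0.0010, limma), and with miR-195 9.54, 9.37 and 9.15, a change of 0.98 ± 0.21 (adjusted p = 0.0018). With miR-103 and miR-107 the change was 0.90 in both, with adjusted p-values of 0.0037 and 0.0035, and with miR-107-mut2 it was 0.83 (adjusted p = 0.0082). The miR-107-mut2 call ended in 2 of 6 fits that left out an array (adjusted p = 0.06 without miR-107-mut2 replicate 1). With miR-320, miR-15b* and miR-107-mut1 the changes were 0.16, 0.39 and 0.36, and none passed. COL4A5 stayed between -0.24 and 0.16 in all 8 comparisons.

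COL4A1 and COL4A2 are neighbours on chromosome 13 that are read in opposite directions from start sites with 126 bases between them. Those bases are shown because both genes rose in the same 5 comparisons. They span chr13:110307158-110307283 (RefSeq, GRCh38.p14), are written on the COL4A1 strand (the minus strand), and carry in capitals the match to the GC box letters GGGCGG, searched on both strands.
COL4A1 to COL4A2: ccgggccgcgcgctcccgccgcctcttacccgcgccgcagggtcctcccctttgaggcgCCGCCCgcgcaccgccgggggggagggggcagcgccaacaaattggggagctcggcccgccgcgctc
The match starts 67 bases before the COL4A1 start site. GGGCGG was present in 34 of the 45 members with a 300-base promoter window in RefSeq (75.6%) and in 44.6% of 27305 windows. Those windows were not limited to genes tested here or of like level, so this and the next shares compare unlike sets. The AP-1 letters TGANTCA, searched in the same way, were in 2 of the 45 (4.44%, against 7.76% of all windows), those of ADAMTS12 and POSTN. The TEAD letters GGAATG were in 6 of the 45 (13.3%, against 14%). Other members that lie side by side with 0 protein-coding genes between them are COL3A1 with COL5A2, COL6A1 with COL6A2, and MMP1 with MMP3.

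Of the fibrillar collagens, only COL5A1 was called against the control, and it rose with miR-16 and miR-195 and with miR-103 and miR-107. COL5A1 encodes a chain of type V collagen, which sits inside type I fibrils and regulates their width. Its control lysates read 8.73, 8.17 and 8.36. With miR-16 they read 9.44, 9.36 and 8.95, and the change was 0.83 ± 0.17 (1.78-fold, adjusted p = 0.0012, limma). This call was lost when only the arrays compared were fitted. With miR-195 they read 9.35, 9.16 and 9.04 (0.77 ± 0.17, adjusted p = 0.0027), and with miR-103 9.21, 9.22 and 9.05 (0.74 ± 0.17, adjusted p = 0.0034). In these 3 groups every array lay above the highest control. With miR-107 COL5A1 read 9.27, 8.99 and 8.95, a change of 0.65 ± 0.17 (adjusted p = 0.0090), which no longer passed without control replicate 2 (adjusted p = 0.074) and without 1 of the miR-107 arrays.

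The other 7 fibrillar chains were not called with any transfection. COL1A1, a chain of type I collagen, moved between -0.06 and 0.23. COL3A1, type III collagen, moved between -0.30 and 0.48. COL5A2, the partner chain of COL5A1, reached 0.62 with miR-195 and 0.50 with miR-16, and in both groups its replicates lay above those of the control although the test was not passed. COL2A1, COL5A3, COL11A2 and COL27A1 stayed between -0.09 and 0.30.

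Among the other collagens, COL6A3 and COL18A1 rose with 5 and 6 transfections, COL6A1 with 2, and COL12A1 and COL7A1 with 1 each. COL6A3 encodes a long chain of type VI collagen, a beaded filament collagen of the cell surroundings. Its control lysates read 11.52, 10.46 and 10.92, with an SD of 0.53. With miR-195 it read 12.39, 12.12 and 12.07 and rose by 1.23 ± 0.26 (2.34-fold, adjusted p = 0.0020, limma). With miR-107 it read 12.47, 12.05 and 12.04 (1.22 ± 0.26, adjusted p = 0.0018), and with miR-103 12.30, 11.99 and 12.16 (1.19 ± 0.26, adjusted p = 0.0026). Each of these 9 arrays lay above the highest control array.

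COL6A3 also rose with miR-16, where it read 12.34, 11.92 and 11.89 (1.08 ± 0.26, adjusted p = 0.0054), and with miR-107-mut2, where it read 12.19, 11.86 and 11.83 (0.99 ± 0.26, adjusted p = 0.011). Without control replicate 2, the lowest of the 3, these calls ended with adjusted p-values of 0.055 and 0.10. With miR-320, miR-15b* and miR-107-mut1 the COL6A3 changes were 0.68, 0.55 and 0.66 and did not pass. COL6A1, another chain of type VI collagen, rose by 0.48 with miR-103 and 0.46 with miR-107, and without control replicate 2 the adjusted p-values became 0.11 and 0.15. COL6A2, the third chain described, was not called and moved between 0.02 and 0.28.

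COL18A1 encodes the collagen of basement membranes from which endostatin is cut. Its control lysates read 8.17, 8.06 and 8.08, and with miR-103 they read 8.52, 8.79 and 8.57, a rise of 0.52 ± 0.13 (1.44-fold, adjusted p = 0.0055, limma). It rose by 0.48 with miR-16, 0.47 with miR-107-mut2, 0.45 with miR-15b*, 0.40 with miR-195 and 0.38 with miR-107. The groups with these rises did not overlap the control, but the call with miR-107 was lost with any of the 6 arrays left out (adjusted p up to 0.14) and that with miR-195 with 5 of 6 (up to 0.18). The calls with miR-15b*, miR-16 and miR-107-mut2 ended in 3, 1 and 1 of 6 such fits, with adjusted p-values up to 0.16, 0.096 and 0.056.

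COL12A1, which encodes a collagen that decorates type I fibrils, read 11.38, 10.73 and 11.17 in the controls and 12.38, 12.44 and 12.34 with miR-195. That rise was 1.30 ± 0.37 (2.46-fold, adjusted p = 0.021, limma), with no overlap, and the call was lost in 4 of 6 fits that left out an array (adjusted p = 0.11 without control replicate 2). With miR-15b* it read 11.40, 9.44 and 10.90, where replicate 2, one of the arrays that stood apart, was far below the others. COL7A1, the collagen of anchoring fibrils, rose by 0.35 with miR-103, and that call ended without the arrays that stood apart and in 5 of 6 fits that left out an array (adjusted p up to 0.21, without miR-103 replicate 2). The remaining tested chains of this group (COL8A2, COL9A2, COL9A3, COL13A1, COL16A1, COL20A1, COL23A1 and COL26A1) were not called, and their changes lay between -0.07 and 0.36.

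COL15A1, a basement membrane collagen related to COL18A1, fell below the filter because its IP values are low. In the controls it read 6.60, 6.74 and 6.74. With miR-195 it read 7.38, 7.55 and 7.44, higher by 0.76 ± 0.14 (SE), and with miR-16 it read 7.42, 7.69 and 7.24, higher by 0.75 ± 0.14. It was higher by 0.54 with miR-107-mut2 and by 0.46 with miR-107. COL15A1 owes its place in the set to such groups, since its control mean of 6.69 lies below the level of 7 used to choose members, so these differences carry no test.

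No laminin passed the test with any transfection. Laminins are trimers of an alpha, a beta and a gamma chain that lay down the sheet of the basement membrane. Over the 8 chains and 8 transfections the changes lay between -0.50, for LAMC1 with miR-16, and 0.68, for LAMA4 with miR-195. LAMA5, an alpha chain, read 9.56, 9.24 and 9.41 in the controls and 9.29, 8.92 and 9.10 with miR-107, which overlap. LAMB1, a beta chain, changed by 0.61 with miR-107, 0.57 with miR-107-mut2 and 0.51 with miR-103. In the first 2 of these its arrays lay above those of the control, but no adjusted p was under 0.05.

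SPARC was the only glycoprotein called, and it rose with 5 transfections. SPARC is a collagen-binding protein that takes part in fibril assembly. Its control lysates read 12.70, 12.37 and 12.54. With miR-107 it read 13.23, 13.12 and 13.13 and rose by 0.62 ± 0.09 (1.54-fold, adjusted p = 3.5e-05, limma). With miR-103 it read 13.15, 13.00 and 13.10 and rose by 0.55 ± 0.09 (adjusted p = 0.00017). With miR-107-mut2 it read 13.06, 12.97 and 13.02 and rose by 0.48 ± 0.09 (adjusted p = 0.00079). None of the 9 arrays overlapped the control.

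SPARC also rose by 0.31 with miR-15b* and 0.30 with miR-107-mut1, and each of these calls was lost in 4 of 6 fits that left out an array (adjusted p up to 0.27 and 0.28, both without control replicate 2). With miR-16 and miR-195 it changed by 0.20 and 0.21 and did not pass. FN1, fibronectin, moved between -0.22 and 0.17. TNC, tenascin-C, reached 0.52 with miR-107 without passing. POSTN, periostin, was the member with the largest change that was never called. It read 10.83, 7.93 and 10.86 with miR-16, where replicate 2 is an array that stood apart, against 11.01, 11.32 and 11.26 in the controls.

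LOXL2 was the single member that rose in all 8 lysate comparisons, by 0.89 to 1.51. LOXL2 is a lysyl oxidase, an enzyme that oxidises lysines in collagen so that crosslinks can form. Its control lysates read 10.69, 9.86 and 10.41. With miR-195 it read 11.84, 11.98 and 11.67 and rose by 1.51 ± 0.18 (2.85-fold, adjusted p = 3.2e-06, limma), and with miR-16 11.90, 12.10 and 11.38 (1.48 ± 0.18, adjusted p = 4e-06). With miR-107 it read 11.74, 11.62 and 11.48 (1.29 ± 0.18, adjusted p = 1.7e-05), and with miR-103 11.48, 11.84 and 11.46 (1.27 ± 0.18, adjusted p = 2.3e-05). The highest control array lies below the lowest of these 12 arrays.

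LOXL2 was also higher with miR-320, miR-15b* and both altered molecules than with the negative control RNA. With miR-320 it read 11.45, 11.19 and 11.37, a rise of 1.02 ± 0.18 (adjusted p = 0.0018, limma), and this was the single member called with miR-320. With miR-15b* it read 11.22, 11.34 and 11.07, a rise of 0.89 ± 0.18 (adjusted p = 0.0028). With miR-107-mut1 and miR-107-mut2 it rose by 1.13 and 1.17. Since every comparison uses the same 3 control arrays, a low control level and 8 separate rises cannot be told apart in these comparisons. In each of the 8 comparisons the call held with every single array left out. When only the arrays compared were fitted, the miR-15b* call was lost.

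LOXL3, another lysyl oxidase, rose with 5 transfections, most with miR-107-mut1. It read 7.35, 6.72 and 7.06 in the controls and 8.04, 7.83 and 8.06 with miR-107-mut1, a rise of 0.93 ± 0.14 (1.91-fold, adjusted p = 0.00015, limma) with no overlap. It rose by 0.56 with miR-15b*, 0.46 with miR-16, 0.43 with miR-107-mut2 and 0.42 with miR-103, and these 4 calls were lost in 3 to 5 of 6 fits that left out an array (adjusted p up to 0.17, 0.24, 0.29 and 0.28, all without control replicate 2). Without the arrays that stood apart, the calls with miR-103 and miR-16 ended. LOX, the founding member of the family, rose with miR-195 alone among the 8. It read 11.79, 11.22 and 11.67 in the controls and 12.37, 12.49 and 12.19 with miR-195 (0.79 ± 0.22, adjusted p = 0.016), and without control replicate 2 its adjusted p became 0.11. LOXL1 was not called and moved between -0.28 and 0.10.

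**Figure D2:**
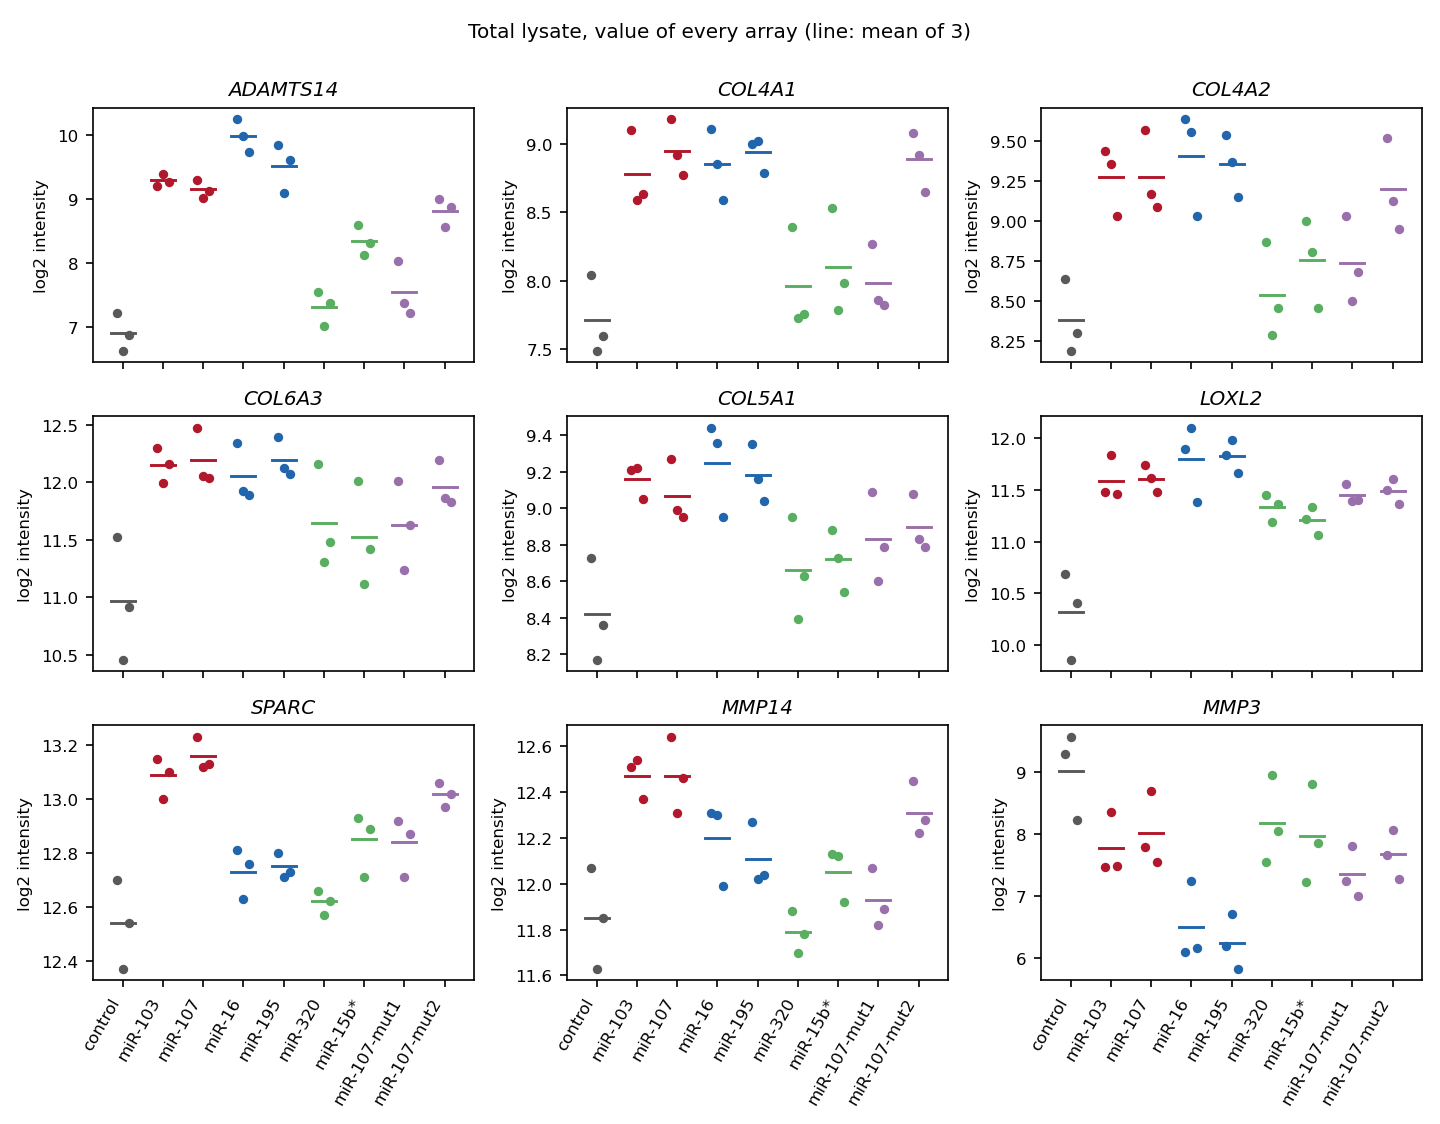
Log2 value of every lysate array (vertical axis) in the 9 groups (horizontal axis) for 9 matrix genes, with points for the 3 replicates and a line at the group mean. ADAMTS14 runs from a control mean of 6.91 to 9.99 with miR-16, and MMP3 runs the other way, from 9.02 to 6.24 with miR-195.

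ADAMTS14, whose control mean of 6.91 lies below the level that chose the members, is described here with no test in lysate. It encodes a proteinase of the family that removes the amino-terminal propeptide of fibrillar procollagens. Control lysates gave 7.22, 6.63 and 6.87. With miR-16 it read 10.25, 9.99 and 9.74, higher by 3.09 ± 0.22 (SE, 8.50-fold), and with miR-195 9.85, 9.09 and 9.61, higher by 2.61 ± 0.22 (6.10-fold). With miR-103 it read 9.20, 9.39 and 9.26, higher by 2.38 ± 0.22 (5.2-fold), and with miR-107 9.30, 9.02 and 9.13, higher by 2.24 ± 0.22 (4.73-fold). Every array of these 4 groups lay well above the highest control.

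ADAMTS14 was also higher with miR-107-mut2 (9.0, 8.56 and 8.88, by 1.91 ± 0.22) and with miR-15b* (8.59, 8.13 and 8.31, by 1.44 ± 0.22). With miR-107-mut1 it read 8.03, 7.38 and 7.22 and with miR-320 7.54, 7.02 and 7.38. Both overlapped the control, with differences of 0.64 and 0.41. In order of the lysate means, ADAMTS14 ran from 6.91 with the control through 7.31 with miR-320 and 7.54 with miR-107-mut1 to 8.34 with miR-15b*, 8.81 with miR-107-mut2, 9.15 with miR-107, 9.29 with miR-103, 9.52 with miR-195 and 9.99 with miR-16. Between neighbours in this order the replicate ranges overlap, except from miR-107-mut1 to miR-15b* and from miR-107-mut2 to miR-107.

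ADAMTS9, which cuts versican and aggrecan, also has a control mean below 7 (6.96) and is described with no test in lysate. It read 7.18, 6.76 and 6.93 in the controls, 7.87, 7.90 and 7.86 with miR-107 (higher by 0.92 ± 0.26) and 7.94, 7.93 and 7.93 with miR-195 (higher by 0.98 ± 0.26). With miR-107-mut2 it was higher by 0.98. These 3 groups did not overlap the control. With miR-320 ADAMTS9 read 7.92, 7.86 and 7.80, above every control and higher by 0.91.

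ADAMTS3 and ADAMTS12 were the ADAMTS members that fell. ADAMTS3, a procollagen N-proteinase like ADAMTS14, read 7.96, 8.07 and 8.39 in the controls. With miR-16 it read 7.70, 7.06 and 7.44 and fell by 0.74 ± 0.17 (adjusted p = 0.0044, limma), and with miR-195 7.81, 7.37 and 7.68 and fell by 0.52 ± 0.17 (adjusted p = 0.049). With miR-107-mut1 it read 8.72, 8.88 and 9.10 and rose by 0.76 ± 0.17 (adjusted p = 0.0064). None of these groups overlapped the control. The miR-195 call was lost in 4 of 6 fits that left out an array (adjusted p up to 0.25, without miR-195 replicate 2) and the miR-107-mut1 call in 1 (adjusted p = 0.053, without miR-107-mut1 replicate 3).

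ADAMTS12, a proteinase linked to cartilage matrix, read 9.23, 9.46 and 9.26 in the controls and 8.72, 8.69 and 8.69 with miR-16. The fall was -0.62 ± 0.16 (adjusted p = 0.0088, limma), with an adjusted p of 0.055 without control replicate 2. ADAMTS1, ADAMTS2, ADAMTS10, ADAMTS13 and ADAMTS19 were not called against the control. ADAMTS2, a further procollagen N-proteinase, moved between -0.09 and 0.28. ADAMTS19 moved most of these 5, from -0.70 with miR-107-mut1 to 0.68 with miR-107-mut2.

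Among the metalloproteinases in the main test, MMP14 rose with 3 transfections, MMP2 with 2 and MMP15 with 1. MMP14 is a membrane-anchored enzyme that cuts collagen and activates MMP2. It read 12.07, 11.63 and 11.85 in the controls. With miR-103 it read 12.51, 12.54 and 12.37 and rose by 0.63 ± 0.12 (1.54-fold, adjusted p = 0.0010, limma), and with miR-107 12.64, 12.31 and 12.46 and rose by 0.62 ± 0.12 (adjusted p = 0.00098). With miR-107-mut2 it rose by 0.46 (adjusted p = 0.013), or 0.11 as the adjusted p without control replicate 2. The miR-103 and miR-107 arrays did not overlap the control.

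MMP2, a gelatinase, read 13.29, 13.09 and 13.17 in the controls and rose by 0.29 with miR-16 and 0.26 with miR-195. These calls were lost in 4 and 5 of 6 fits that left out an array, with adjusted p-values up to 0.10 and 0.19. MMP15, another membrane-anchored enzyme, read 7.20, 7.18 and 7.19 in the controls and 7.60, 8.30 and 7.57 with miR-16, a rise of 0.63 ± 0.18 (adjusted p = 0.019, limma). Its highest value is from replicate 2, an array that stood apart, and without that array alone the adjusted p was 0.17, while the call held in the fit without all the arrays that stood apart. MMP11, MMP16, MMP17, MMP25 and MMP28 were not called, and MMP16, a membrane-anchored enzyme, lay between -0.43 and -0.04 over the 8 comparisons.

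MMP1, MMP3 and MMP13 fell below the filter because their IP values are low, and were tested only in the fit of all 18417 genes. MMP3, stromelysin 1, read 9.29, 9.56 and 8.22 in the controls. With miR-195 it read 6.19, 6.71 and 5.83 and fell by 2.78 ± 0.45 on the log2 scale (adjusted p = 0.00014, limma). With miR-16 it read 6.10, 7.24 and 6.16 and fell by 2.52 ± 0.45 (adjusted p = 0.00038), and with miR-107-mut1 7.24, 7.81 and 7.0 and fell by 1.67 ± 0.45 (adjusted p = 0.025). The lowest control array lies above every array of these 3 groups.

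With miR-103, miR-107, miR-15b*, miR-320 and miR-107-mut2 MMP3 changed by -1.25, -1.01, -1.07, -0.84 and -1.35, and none passed. MMP1, an interstitial collagenase and neighbour of MMP3, read 8.16, 7.49 and 7.08 in the controls and 6.11, 5.79 and 5.61 with miR-15b*. That fall was -1.74 ± 0.28 (adjusted p = 0.00040, limma) with no overlap, and it was the single MMP1 call against the control. MMP13, collagenase 3, changed by -0.99 with miR-15b* without passing the test, and by between -0.09 and 0.64 otherwise.

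Of the inhibitors, TIMP2 was the single one called against the control. TIMP2 blocks metalloproteinases and also takes part in the activation of MMP2 by MMP14. It read 12.43, 12.29 and 12.47 in the controls, 12.73, 12.81 and 12.80 with miR-16 (0.38 ± 0.08, adjusted p = 0.0024, limma) and 12.70, 12.80 and 12.87 with miR-195 (0.39 ± 0.08, adjusted p = 0.0019). With miR-15b* it read 12.12, 11.91 and 12.13 and fell by 0.34 ± 0.08 (adjusted p = 0.011), a call lost in 2 of 6 fits that left out an array (adjusted p = 0.074 without miR-15b* replicate 2). All 3 groups were separate from the control. TIMP1 moved between 0.02 and 0.22, and TIMP3 between -0.30 and 0.60, with no call. TIMP4 moved between -0.54 and 0.69 with no call.

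The comparison of miR-103 and miR-107 with miR-16 and miR-195 uses no control array. In lysate 5 members were higher with miR-103 and miR-107 and 1 was lower, where 3.57% of all genes were higher and 6.47% lower. ADAMTS3 was higher by 0.56 ± 0.12 (adjusted p = 0.0042, limma), with 8.0 to 8.19 on 5 of the 6 arrays of miR-103 and miR-107 and 7.82 on the other, against 7.06 to 7.81 on those of miR-16 and miR-195. SPARC was higher by 0.38 ± 0.06 (adjusted p = 0.00035), and its lowest array with miR-103 or miR-107 (13.00) lay above its highest with miR-16 or miR-195 (12.81). MMP14 was higher by 0.32 ± 0.09 (adjusted p = 0.022), a call lost in 5 of 12 fits that left out an array (up to 0.070, without miR-107 replicate 1).

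ADAMTS12 was higher with miR-103 and miR-107 by 0.43 ± 0.11 (adjusted p = 0.015, limma), and 0.055 without miR-107 replicate 2. TIMP4, which read 8.33, 8.86 and 8.25 with miR-103 and 8.35, 8.70 and 8.33 with miR-107, read 7.79, 8.32 and 7.66 with miR-16 and 8.05, 8.07 and 7.66 with miR-195. These ranges overlap, the difference was 0.54 ± 0.17 (adjusted p = 0.046), and it was lost in 10 of 12 fits that left out an array (up to 0.13, without miR-195 replicate 3). ADAMTS14, the member counted as lower with miR-103 and miR-107, differed by -0.54 ± 0.15, and with it and the others below 7 set aside the counts were 5 and 0. COL4A1, COL4A2, COL5A1, COL6A3 and LOXL2, which all rose with the 4 microRNAs, were not called between the pairs. For MMP3, in the fit without a filter, the difference was 1.52 ± 0.32 (adjusted p = 0.0033), higher with miR-103 and miR-107.

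**Figure D3:**
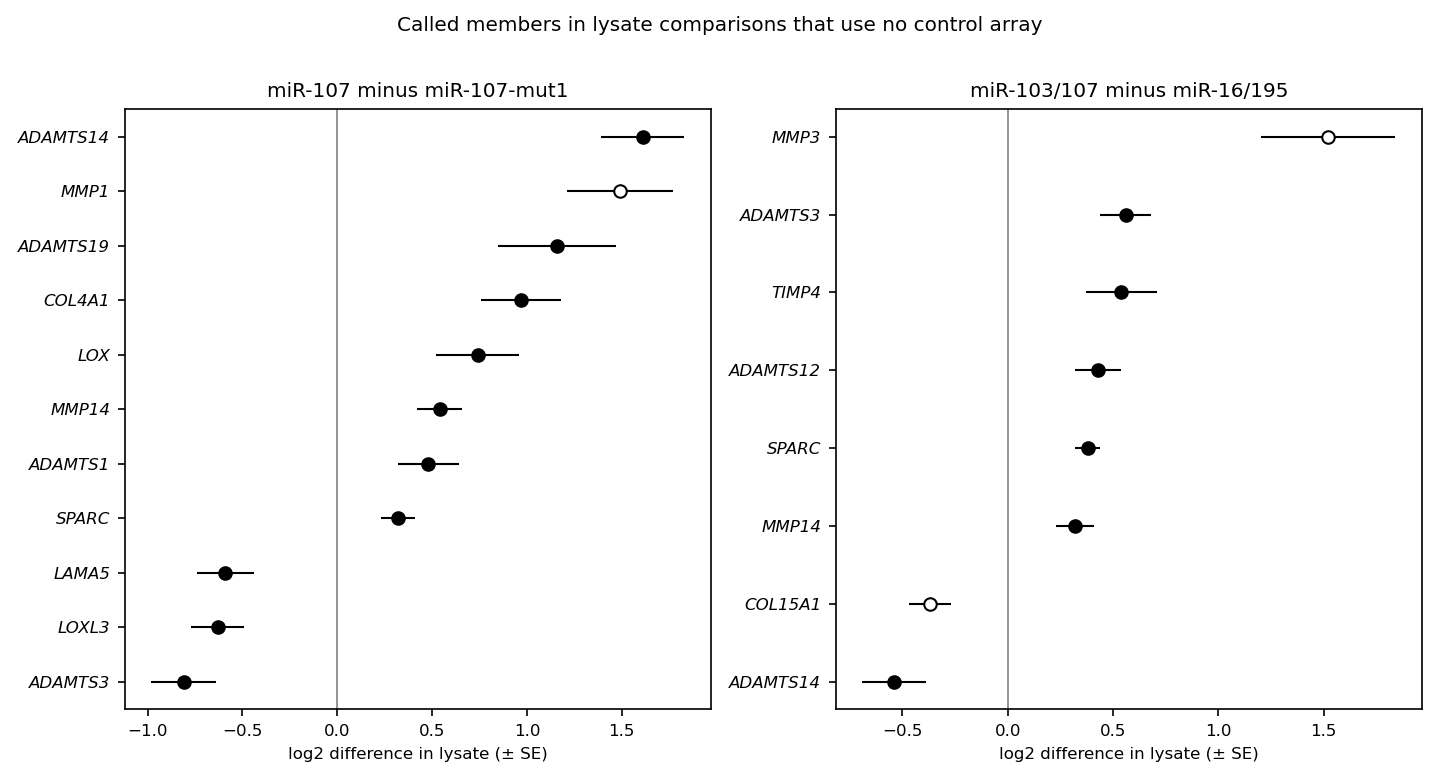
Log2 difference in lysate with its standard error (horizontal axis) of the matrix genes called (vertical axis) between miR-107 and miR-107-mut1 (left) and between miR-103 with miR-107 and miR-16 with miR-195 (right), with open circles for genes tested in the fit without a filter. ADAMTS14 lies at 1.61 on the left and at -0.54 on the right, and is shown as a description because its control lysate mean lies below 7.

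The altered molecules differed from miR-107 to unequal extents, over all genes as well as among the members. Against miR-107-mut1, 7 members, counting ADAMTS14, were higher with miR-107 and 3 were lower. These are 11.3% and 4.84% of the members tested, where 6.96% of all genes were higher and 6.51% lower. Against miR-107-mut2, 0 were higher and 0 lower in limma's test, with 1 member at an unadjusted p under 0.05, and 0.0814% of all genes were called in either direction. ADAMTS14 was higher with miR-107 than with miR-107-mut1 by 1.61 ± 0.22 (3.04-fold), and with the genes below 7 set aside the counts were 6 and 3. COL4A1 was higher by 0.97 ± 0.21 (1.96-fold, adjusted p = 0.0029, limma), its lowest miR-107 array (8.77) lying above the highest miR-107-mut1 array (8.27). That call held with each array left out, as did those of MMP14, higher by 0.54, LOXL3, lower by 0.63, and ADAMTS3, lower by 0.81.

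The remaining calls between miR-107 and miR-107-mut1 rested more on single arrays. ADAMTS19 read 11.12, 10.70 and 11.20 with miR-107 and 10.26, 9.26 and 10.02 with miR-107-mut1, higher by 1.16 ± 0.31 (adjusted p = 0.013, limma, and 0.10 without miR-107-mut1 replicate 2). LOX was higher by 0.74 ± 0.22 (adjusted p = 0.026, and 0.18 without that same array), SPARC by 0.32 (0.11 without that array) and ADAMTS1 by 0.48 (0.19 without miR-107 replicate 3). LAMA5, which read 9.77, 9.56 and 9.74 with miR-107-mut1, was lower with miR-107 by -0.59 ± 0.15 (adjusted p = 0.012, and 0.077 without miR-107 replicate 2), and was the single laminin call in the lysate comparisons. MMP1, in the fit without a filter, was higher with miR-107 by 1.49 ± 0.28 (adjusted p = 0.00086).

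In the Argonaute IP few members passed the test. With genes whose control lysates lay below 7 set aside, 0 of 59 members were called against the control with miR-103 and 0 with miR-16. Over all 62, ADAMTS14 was the single member called against the control, with miR-103, where 0.235% of all genes rose and 1.79% fell, and with miR-16, where 0.136% rose and 1.12% fell. It read 4.03, 3.79 and 3.89 in the control IPs. With miR-103 it read 5.21, 5.25 and 5.32, higher by 1.36 ± 0.33 (SE), and with miR-16 4.94, 5.09 and 6.41, higher by 1.58 ± 0.33. ADAMTS14 is a member through lysate groups in which it is higher, these transfections among them, so its IP differences are given as a description. The ranges did not overlap the control. In limma the miR-103 call was lost with any of the 6 arrays left out (adjusted p up to 0.15) and the miR-16 call with 3 of them (up to 0.10), both highest without control replicate 3.

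With the other 6 transfections limma called 0 members in the IP against the control, where the share of all genes called in either direction was 3.83% with miR-107, 0.67% with miR-195, 2.21% with miR-320, 0.217% with miR-15b*, 0.742% with miR-107-mut1 and 0.344% with miR-107-mut2. At an unadjusted p under 0.05 there were 12, 6, 2, 8, 3 and 4 members in that order. Between the microRNA pairs 0 members were called (0.38% of all genes), with 4 at an unadjusted p under 0.05. Between miR-107 and miR-107-mut2 0 were called (0.0362% of all genes), with 6 at an unadjusted p under 0.05. LOXL2 was the single call between miR-107 and miR-107-mut1, where 0.19% of all genes were higher and 4.86% lower. It was lower with miR-107 by -1.35 ± 0.39 (adjusted p = 0.048), from 6.07, 5.47 and 5.12 against 5.92, 7.33 and 7.44, which overlap. That call was lost without the arrays that stood apart and in 4 of 6 fits that left out an array (adjusted p up to 0.32, without miR-107-mut1 replicate 3).

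COL4A1 read 3.56, 3.66 and 3.66 in the control IPs and 4.43, 4.08 and 4.11 with miR-107, a difference of 0.58 ± 0.20 (adjusted p = 0.10, limma) without a call and with no overlap. In data simulated from the miR-107 comparison, with 200 of 11050 genes changed, the fit recovered 25.4% of log2 changes of 0.5 in lysate and 5.97% of them in the IP. Of log2 changes of 1 it recovered 88.1% and 31.3%.

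Whether a change in the IP differs from that in the lysate was tested in 1 fit of all 54 arrays. That fit does not pair the IP and lysate arrays of the same replicate number. With IP minus lysate taken per number, 5 members were called for miR-103 and miR-107 and 2 for miR-16 and miR-195, all down. The values that follow are from the fit without pairing. For miR-103 and miR-107 together, 0 members moved up in the IP relative to the lysate and 3 moved down, where 1.69% of all genes moved up and 4.85% down. With genes below 7 in the control lysates set aside, 0 moved up and 1, LOXL2, moved down. LOXL2 differed by -1.45 ± 0.38 (adjusted p = 0.014, limma). In the IP it read 5.31, 5.60 and 5.89 in the controls and 5.23, 5.40 and 5.32 with miR-103, with overlap, while in lysate it rose. ADAMTS14 differed by -1.27 ± 0.35 and ADAMTS9 by -0.89 ± 0.26, and since the lysate differences enter these values they are descriptions. ADAMTS9 read 3.04, 2.87 and 2.84 in the control IPs and 2.87, 2.80 and 3.2 with miR-107, while its lysate was higher by 0.92.

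For miR-16 and miR-195 together, 0 members moved up and 1 moved down, where 0.842% of all genes moved up and 2.07% down. That member was ADAMTS14, at -1.45 ± 0.35, and with the genes below 7 set aside 0 moved in either direction. Without lysate control replicate 2, 0 members were called in both tests, with an adjusted p of 0.088 for LOXL2 (limma). The IP arrays have means of 3.614 to 3.65 and the lysate arrays of 7.111 to 7.165, so each fraction seems to have been normalized on its own. A smaller log2 change in the IP and a compressed scale of its low values cannot be told apart for these genes. After cyclic loess over all arrays the LOXL2 difference no longer passed.

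**Figure D4:**
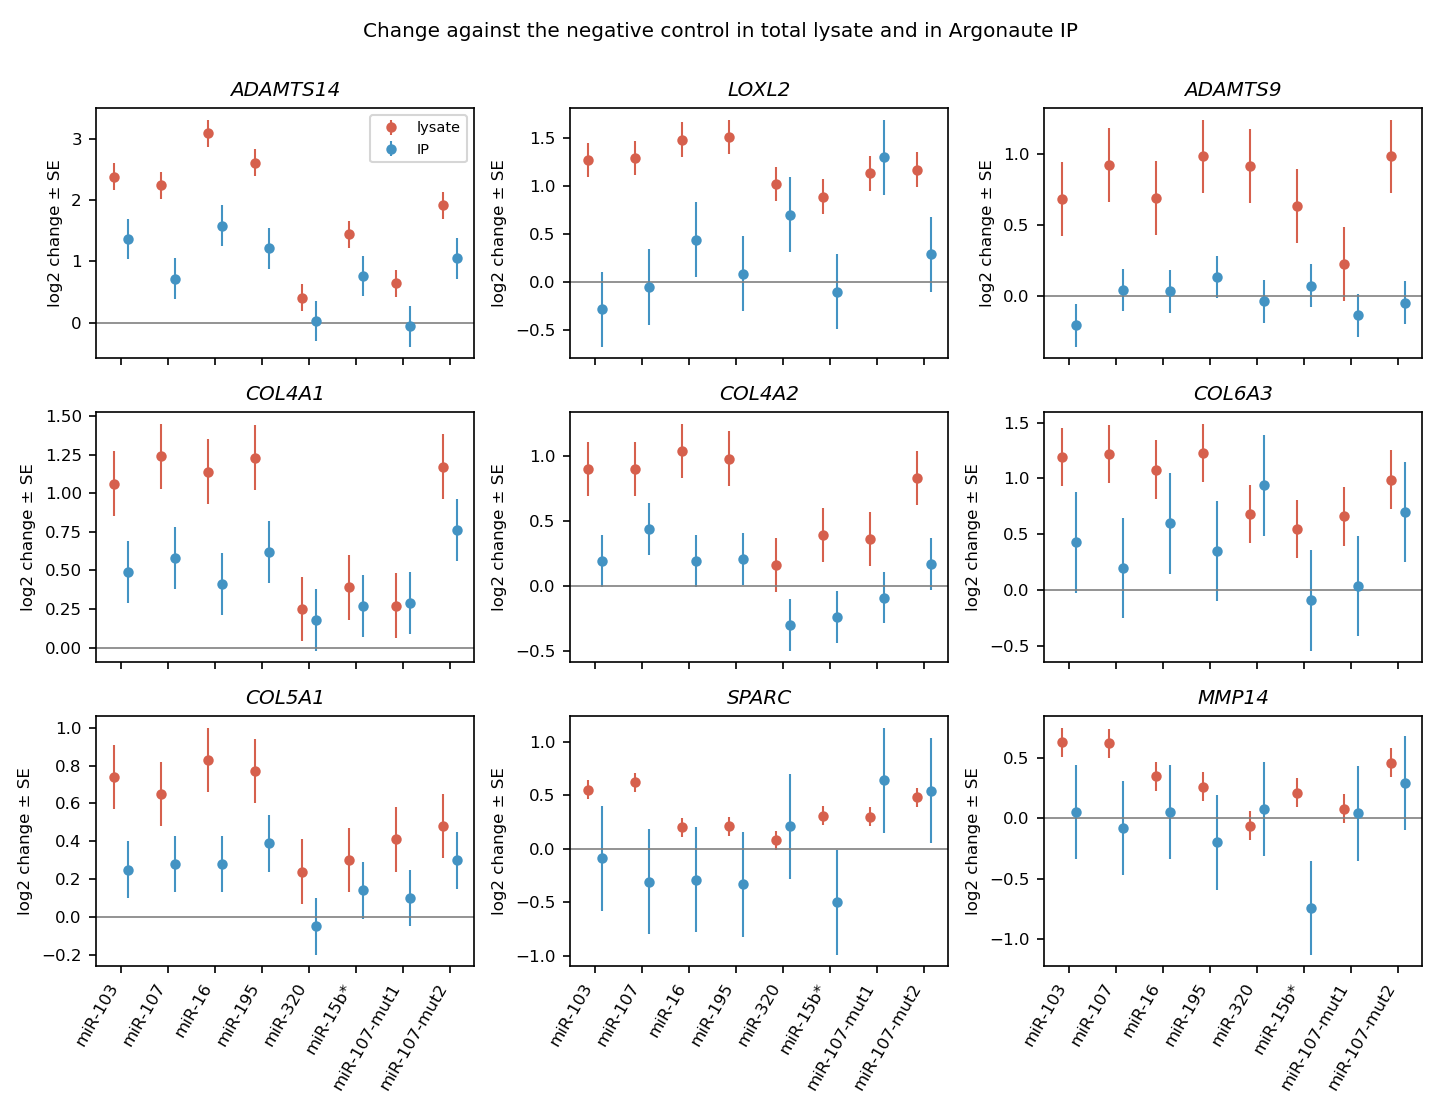
Log2 change against the negative control with its standard error (vertical axis) in lysate (red) and in the IP (blue) for each of the 8 transfections (horizontal axis), in 9 panels of 1 matrix gene each, from 3 arrays a group. With miR-103, ADAMTS14 lies at 2.38 in lysate and 1.36 in the IP, while LOXL2 lies at 1.27 in lysate and its IP arrays overlap those of the control.

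With the negative control RNA, the IP was set against the lysate after cyclic loess brought the 54 arrays to 1 scale. Of the 62 members 29 were higher and 22 lower in the IP, where 38.5% of all genes were higher and 37.5% lower, so most genes were called in this comparison. The members highest in the IP were COL5A3 at 2.23, COL9A2 at 2.20, COL13A1 at 2.12 and COL9A3 at 2.05. The lowest were POSTN at -3.50, LOX at -2.83, LAMC1 at -2.16 and COL12A1 at -2.04. The members higher in the IP had control lysate levels of 6.91 to 9.98 (median 7.65) and those lower had 7.80 to 13.18 (median 10.76), so direction went with lysate level. The part that level plays was not tested. In the values as deposited, where the median over all genes was -4.2, COL5A3, COL9A2, COL13A1 and COL9A3 lay between -2.21 and -1.98 and so above that median.

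Other matrix genes were taken from a list of 106 proteoglycans, glycoproteins and matricellular, crosslinking and processing genes, of which 76 were tested. With miR-16, 19 rose and 6 fell, with miR-195 15 and 4, with miR-103 13 and 2, and with miR-107 11 and 2. With miR-107-mut2, 12 rose and 2 fell, with miR-107-mut1 8 and 3, with miR-15b* 4 and 2, and with miR-320 1 and 2. Of all genes, 9.56% rose and 7.45% fell with miR-16, 6.82% and 7.22% with miR-195, 8.37% and 8.88% with miR-103, and 6.51% and 8.35% with miR-107. The shares were 6.23% and 7.58% with miR-107-mut2, 3.33% and 5.44% with miR-107-mut1, 3.5% and 4.04% with miR-15b*, and 1.46% and 1.5% with miR-320. CCN1, a matricellular protein, read 7.03, 7.02 and 7.22 in the control lysates and 9.86, 11.34 and 10.70 with miR-16, a rise of 3.54, and it also rose by 3.54 with miR-195, 2.24 with miR-107 and 1.97 with miR-103. CCN2 rose by 3.03 with miR-16 and with miR-195. THBS1, thrombospondin 1, rose by 2.95 with miR-195 and 1.51 with miR-103. TGM2, a transglutaminase that crosslinks matrix proteins, rose by 2.77 with miR-16 and, with miR-107-mut1, by 2.29.

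ADAM12 and ADAM19, membrane metalloproteinases outside the members' families, rose with 7 transfections each, by up to 2.27 and 1.84, both with miR-107. VCAN, the proteoglycan versican, rose by 1.4 with miR-195. SPP1, osteopontin, fell with 4 transfections, by 1.46 with miR-195. Among 17 receptors for these proteins, integrins and others, 13 were tested, and 5 rose and 0 fell with miR-103, 4 and 1 with miR-107, 5 and 1 with miR-16, and 4 and 1 with miR-195. With miR-107-mut1 5 rose and 0 fell, with miR-107-mut2 4 and 0, with miR-15b* 0 and 1, and with miR-320 1 and 1. The shares of all genes are those given for the other matrix genes.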

How the data were processed

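RNA of 54 samples was hybridised to the Affymetrix Human Gene 1.0 ST array after Trizol LS extraction and the Ambion WT expression kit, per the labels' protocols. Per the submitters' processing notes, the authors used Affymetrix Expression Console 1.1 and RMA. The deposited values name no log base and are taken to be log2 intensities. The probe table gave 1 symbol for 19460 of 33297 probe sets, several for 1754 and none for 12083. Of the first, 19429 took the current symbol of their gene ID and 31 the one listed. For 769 genes the probe set with the highest mean was kept. The lowest 40% of 18417 genes (below 5.26 over all arrays) were left out. Groups were compared in limma 3.58.1 (R 4.3.3) with Benjamini-Hochberg adjustment over 11050 genes, each fraction in 1 fit of 27 arrays and 9 groups. Interactions and control IP against lysate used all 54 arrays. SE is limma's moderated standard error.

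Genes named with the value of every array are members called without replicate overlap in lysate (the 14 largest changes), called in the IP or an interaction, or called between the microRNA pairs (the 6 largest each), and at least 1 per role. Other matrix genes named are the 8 largest. TIMP2, MMP2, COL18A1, COL6A1 and the members below the filter were added after their values were seen. Members, lists and tests were chosen with earlier results of these data known. The models were tested on simulated data (200 of 11050 genes changed). Replicates are biological, per the design text, and 3 arrays a group set the precision. Alternatives were cyclic loess, joint quantile normalization, no filter, only the arrays compared, a replicate block, array quality weights, the mean of probe sets, other member levels, each array left out and, chosen after seeing the data, without the arrays that stood apart (median correlation with their fraction over 3 scaled median absolute deviations below its median). Sequences are from RefSeq tables. Figures were drawn with matplotlib 3.10.9 (Python 3.11.15, pandas 2.3.3).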

Additional observations from a re-analysis of the deposited data

Results flagged for a closer look

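In 4 cases the change in the IP differed from that in the lysate by limma's interaction test over 54 arrays. With miR-103 and miR-107, the IP change minus the lysate change was -1.27 for ADAMTS14, -0.89 for ADAMTS9 and -1.45 for LOXL2. With miR-16 and miR-195 it was -1.45 for ADAMTS14. ADAMTS14 and ADAMTS9 have control lysate means below 7 and were chosen through lysate groups in which they are higher, so their values are descriptions. All 4 calls ended without lysate control replicate 2.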

How the results depend on the processing

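Of the 70 calls of members against the control in lysate, 66 held after cyclic loess, 63 with no filter, 51 with only the arrays compared and 67 without the arrays that stood apart. The 70 include 6 calls of ADAMTS14 and 3 of ADAMTS9, whose control lysates lay below 7. With only the arrays compared, 19 were lost. With miR-16 these were ADAMTS3, COL5A1, COL6A3, COL18A1, LOXL3, MMP2, MMP15 and TIMP2. With miR-15b* they were COL18A1, LOXL2, LOXL3, SPARC and TIMP2, and with miR-103 COL6A1, COL7A1 and LOXL3. The rest were LOXL3 with miR-107-mut2, MMP2 with miR-195 and SPARC with miR-107-mut1. All 70 held with array quality weights, with the mean of a gene's probe sets and with the replicate block, and no such call changed direction. Only 3 members, TIMP3, MMP16 and COL11A2, have several probe sets and none of them is among the 70, so the mean of probe sets could hardly change a call. The weights raised the count in each of these lysate comparisons and the block in most, as given below, so both are weak checks on single calls. In control IP against lysate the values as deposited reversed COL13A1 (-2.07), COL5A3 (-1.98), COL9A2 (-2.01) and COL9A3 (-2.21), where the median over all genes was -4.2, since the offset between the fractions then enters the difference.

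Counts of members called moved by more than 1.5 times as follows, and the cause was not tested. With array quality weights, whose estimation stopped before convergence, they were in lysate 41 with miR-103, 26 with miR-107, 42 with miR-16, 31 with miR-195, 9 with miR-320, 25 with miR-15b*, 23 with miR-107-mut1 and 30 with miR-107-mut2, and 43 between the microRNA pairs and 20 between miR-107 and miR-107-mut1. In the IP these weights gave 5 with miR-103, 2 with miR-107, 4 with miR-195, 3 with miR-107-mut1, 1 with miR-107-mut2 and 17 between miR-107 and miR-107-mut1, and for the interactions 15 for the pair of miR-103 and 24 for that of miR-16. With only the arrays compared, lysate counts were 5 with miR-16, 2 with miR-320, 1 with miR-15b* and 20 with miR-107-mut2. IP counts were then 2 with miR-103, 2 with miR-107, 0 with miR-16 and 0 between miR-107 and miR-107-mut1, and the interactions 6 and 0, where fewer arrays estimate the spread. Cyclic loess gave 1 in the IP with miR-195, 1 with miR-107-mut1 and 2 for the interaction with miR-16 and miR-195. Without a filter that interaction had 2 and the IP difference of miR-107 from miR-107-mut1 had 0. Without the arrays that stood apart, lysate counts were 3 with miR-320, 9 with miR-107-mut1, 23 with miR-107-mut2, 11 between the pairs and 16 between miR-107 and miR-107-mut1. The interaction with miR-16 and miR-195 then had 3, and the IP difference of miR-107 from miR-107-mut1 had 0.

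Replicates of 1 number share a code in the labels whose meaning is not stated. Around the group means, arrays of 1 number correlated by 0.31 on average in lysate (-0.47 to 0.95, 79 of 108 pairs above 0.1) and 0.27 in the IP (-0.15 to 0.67, 84 of 108). For arrays of unlike number the averages were -0.14 and -0.13. Arrays of 1 number thus shared part of their deviation on average, although not every pair was above 0.1, and its source was not tested. In lysate, 14 of the 66 members were highest on the array numbered 1 in all 9 groups, COL4A2, COL6A3 and SPARC among them. A further 2, MMP3 and TIMP4, were highest on the array numbered 2 in all 9. The main fits and the statements on overlap do not use the number. A gene not called there, or said to overlap the control, may still differ between arrays of the same number. With the replicate block, lysate counts became 19 with miR-103, 23 with miR-16, 4 with miR-320, 10 with miR-15b*, 13 with miR-107-mut1, 17 with miR-107-mut2, 14 between the pairs and 20 between miR-107 and miR-107-mut1. With the block, IP counts became 2 with miR-103, 6 with miR-107, 2 with miR-195, 2 with miR-15b*, 2 with miR-107-mut2 and 11 between miR-107 and miR-107-mut1. For the interactions the block was a fit of IP minus lysate per replicate number, which gave 5 and 2.

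With each array left out in turn, lysate counts ran from 9 to 11 with miR-103, 7 to 11 with miR-107, 8 to 18 with miR-16, 7 to 13 with miR-195, 1 to 2 with miR-320, 2 to 7 with miR-15b*, 3 to 6 with miR-107-mut1 and 4 to 11 with miR-107-mut2. They ran from 3 to 6 between the pairs and 6 to 9 between miR-107 and miR-107-mut1. With miR-107, miR-16, miR-195 and miR-107-mut2 the lowest counts came without lysate control replicate 2. In the IP they were 0 with miR-103, 0 to 1 with miR-16, 0 to 1 with miR-320, 0 to 5 with miR-15b* (5 without replicate 3), 0 to 1 with miR-107-mut1 and 0 to 5 between miR-107 and miR-107-mut1, and for the interactions 0 to 4 and 0 to 2. Such fits were not run for members below the filter. In the simulated data, with 200 of 11050 genes changed, most log2 changes of 0.5 were missed. In the real lysate comparison of miR-107 with the control, 719 genes were called higher and 923 lower. The adjustment depends on how many genes change, so the simulated rates need not hold for the real fits.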
